A study of Mus musculus with 48 samples.

Results

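The genes described here are 10 genes of MHC and antigen presentation, chosen by symbol from the 19601 protein-coding genes of the batch-corrected tables. *H2-K1*, *H2-D1*, *B2m*, *Tap1*, *Tapbp* and *Nlrc5* belong to the class I pathway, and *Cd74*, *H2-Aa*, *H2-Ab1* and *H2-Eb1* to the class II pathway. All 10 passed the filter on low counts and were among the 14839 genes tested.

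RNA was sequenced from the substantia nigra (SN), the midbrain region that holds the dopaminergic neurons lost in Parkinson's disease, of C57BL/6J male mice. The mice had received 1 injection of α-synuclein into the right striatum, either as preformed fibrils (PFFs), which seed aggregation of the mouse's own α-synuclein, or as monomer, the control protein, and then breathed 21% or 11% O2. Of 48 mice, 12 per group, the 42 in the authors' corrected tables were tested here: 11 monomer and 12 PFF mice at 21% O2, and 9 monomer and 10 PFF mice at 11% O2, injected at 121 days of age and harvested 90 to 98 days later in 3 batches. The series design places all mice in 21% O2 for 6 weeks and moves the hypoxic groups to 11% O2 for 6 more, whereas the treatment protocol starts 11% O2 once mice recovered from surgery and gives harvest at 12 weeks. In the paper, the delayed experiment had no monomer group at 11% O2, and the prevention experiment began 11% O2 soon after injection. The groups that the paper sequenced, 12 weeks after injection, include monomer mice at 11% O2, as in the prevention experiment and unlike the delayed one. The side of the SN that was dissected is not given in the sources used here. All groups share the injection, no group was left uninjected, and bulk RNA from dissected tissue cannot tell fewer cells of a type from less RNA per cell.

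Total counts in the 42 mice before batch correction ranged from 12902996 to 17120921 per mouse. The dopaminergic markers *Th* and *Slc6a3* were present in every one of the 42, at 185.2 to 1153 and 360.0 to 1951 TPM (a length-scaled level that sums to a fixed total in each mouse) before correction. Markers of B and T lymphocytes were close to absent: none of 10 passed the filter on low counts, and their summed TPM lay between 2.14 and 5.81 after correction. Of 11 markers of border macrophages, monocytes and dendritic cells, 9 passed the filter.

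MHC class I molecules display peptides made inside the cell on nearly all cell types, although neurons express little of them, and class II molecules display peptides from endocytosed material on specialized cells such as dendritic cells, B cells and macrophages. In the class I pathway, the immunoproteasome cuts proteins into peptides, the TAP transporter carries these into the endoplasmic reticulum, tapasin (*Tapbp*) holds the empty class I molecule at the transporter, and the heavy chain (*H2-K1* or *H2-D1*) leaves for the surface with peptide and β2-microglobulin (*B2m*). *Nlrc5* encodes the transactivator of class I genes, and interferon γ raises both pathways. In the class II pathway, the α chain (*H2-Aa*) pairs with the β chain (*H2-Ab1*), *H2-Eb1* encodes a second β chain, and the invariant chain (*Cd74*) fills the groove until H2-DM exchanges its remnant for peptide.

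All but 3 of the 10 genes lie in the MHC on chromosome 17 of GRCm38. *H2-K1* is at chr17:33996017-34000347 on the minus strand, *H2-D1* at chr17:35262730-35267499 on the plus strand, *Tap1* at chr17:34187553-34197225 on the plus strand and *Tapbp* at chr17:33915899-33929292 on the plus strand. *H2-Aa* is at chr17:34282744-34287823 on the minus strand, with *H2-Ab1* at chr17:34257689-34269419 and *H2-Eb1* at chr17:34305867-34316674 on the plus strand. Of the genes outside the MHC, *B2m* is at chr2:122147686-122153083 on the plus strand.

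Promoter sequences from RefSeq on GRCm38.p6, 250 bases before to 50 after a start site, were at hand for 7 of the 10 genes. Transactivators of both MHC classes act through a short module upstream of the start site whose X2 element contains TGACG and whose Y element is an inverted CCAAT box, read as ATTGG. In the windows of *H2-K1*, *H2-D1*, *B2m* and *H2-Aa*, TGACG was followed on the gene's strand by ATTGG, with 25, 25, 25 and 26 bases between the first bases of the motifs. These stretches are shown 5′ to 3′ on the gene's strand because they are the part that class I genes and a class II gene share, with TGACG and ATTGG in capitals:
H2-K1, chr17:34000359-34000388: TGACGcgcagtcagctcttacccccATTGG
H2-D1, chr17:35262993-35263022: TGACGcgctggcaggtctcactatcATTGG
B2m, chr2:122147609-122147638: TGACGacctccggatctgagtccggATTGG
H2-Aa, chr17:34287867-34287897: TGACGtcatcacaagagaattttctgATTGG

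The spacing was looked at after the windows had been read. Of all 32851 promoter windows, 68, or 0.207%, held TGACG followed by ATTGG at 20 to 30 bases, and 20.8% held TGACG and 37.4% CCAAT on either strand. In *H2-K1* the TGACG began 41 bases before the start site, in *B2m* 78, in *H2-Aa* 74 and in *H2-D1* 101. The *H2-Eb1* and *Tapbp* windows held CCAAT without TGACG. The RefSeq start sites used for *Tapbp*, at 33919478, and for *H2-D1*, at 35263094, lie inside the gene positions given above. The *H2-D1* stretch shown lies inside them too, and sequence upstream of those positions was not searched for either gene. The interferon-type motif of GAAA, any 2 bases and GAAA was present in 3.44% of windows on either strand. Among the 7 genes with a window it was found in *B2m* alone. It is shown in capitals for *B2m*, the partner of all class I heavy chains, where it began 139 bases before the start site:
B2m, chr2:122147538-122147567: ataagaacatGAAACTGAAAatgggaaagt

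*Tap1* is transcribed away from *Psmb9*, an immunoproteasome subunit gene, and the RefSeq start sites of the pair lie 225 bases apart. A TGACG between them, 86 bases before the *Tap1* start, thus belongs to the window of either gene, and is shown on the plus strand because both genes have values below:
Tap1 and Psmb9, chr17:34187458-34187487: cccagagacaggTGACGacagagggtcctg

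In GENCODE vM21 a longer *Psmb9* transcript overlaps the start of *Tap1*, from position 34187553 to 34187764. The methods name no strand option for the counting, so that reads in this overlap cannot be assigned to either gene with certainty. The heavy chain genes *H2-K1* and *H2-D1* are near-identical over parts of their length and reads with several alignments were counted at the primary one, so their counts may be split between them and other class I genes.

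*B2m* was the highest with a mean of 557 TPM over the 42 mice, followed by *H2-D1* with 129 TPM, *H2-K1* with 79.0 TPM and *Tapbp* with 32.2 TPM. *Tap1* had a mean of 5.02 TPM and *Nlrc5*, on chromosome 8, 1.70 TPM. Among the class II genes the mean was 13.0 TPM for *Cd74* on chromosome 18, 9.55 TPM for *H2-Eb1*, 4.86 TPM for *H2-Ab1* and 3.44 TPM for *H2-Aa*. The class II genes rested on few reads, with a median of 40.0 to 70.5 corrected counts per mouse, and *Nlrc5* on 53.5, against 101.5 for *Tap1* and 1806 for *B2m*. They also varied most between mice: the highest mouse exceeded the lowest by 16.0-fold for *Cd74*, 16.2-fold for *H2-Ab1*, 11.0-fold for *H2-Aa* and 6.64-fold for *H2-Eb1*, and by 1.66-fold to 3.52-fold for the 6 class I genes.

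**Figure D1:**
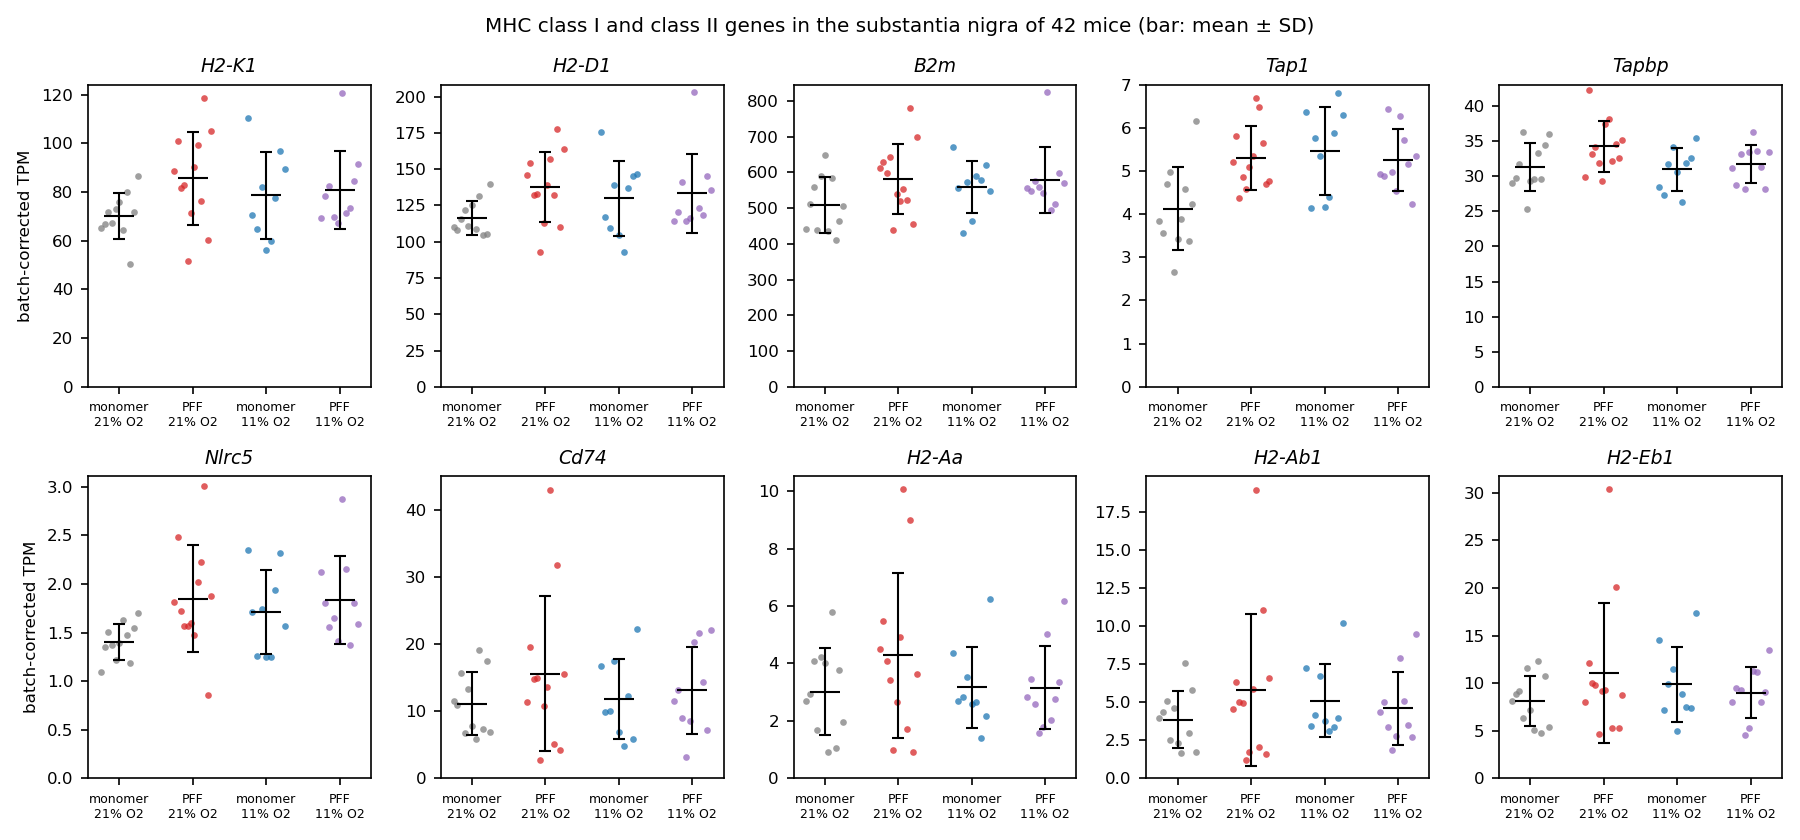
Batch-corrected TPM (linear axes from 0) of the 10 genes in each of the 42 mice, by group, with the mean and SD as bars. All 4 groups overlap for every gene, the PFF mice at 21% O2 have the highest mean for every gene but *Tap1*, and 1 PFF mouse at 21% O2 with 43.0 TPM of *Cd74* and 19.0 TPM of *H2-Ab1* stands above all others.

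The effect of PFFs at 21% O2 was examined first. All 10 genes had a higher fitted level in PFF than in monomer mice, with log2 fold changes from 0.15 to 0.61 and a median of 0.40, against a median of 0.00085 over all 14839 genes. A single gene, *Tap1*, was called, which required both an adjusted p under 0.05 in edgeR's quasi-likelihood test and a fitted difference beyond 0.25 on the log2 scale. This 1 of 10 compares with 3.70% of all genes tested, 2.29% higher and 1.41% lower. All 6 class I genes and none of the 4 class II genes had an unadjusted p under 0.05, while 22.4% of all genes did, with 11.6% of all genes in the upward direction.

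*Tap1*, a subunit of the peptide transporter, ranged from 2.66 to 6.17 TPM with a median of 3.90 in the 11 monomer mice, and from 4.37 to 6.69 with a median of 5.15 in the 12 PFF mice. All 12 PFF mice lay above the median of the monomer mice, although the ranges overlapped because monomer mouse 12 reached 6.17 TPM. The mean was 4.13 ± 0.95 TPM (SD, n = 11) in monomer and 5.30 ± 0.74 TPM (SD, n = 12) in PFF mice. The log2 fold change was 0.38 ± 0.10 (SE), with an adjusted p of 0.0188 by edgeR. Within batches, from counts before correction, the difference in mean log2 CPM (counts scaled to the library total) was 0.27 in batch 1 and 0.45 in batch 2, where groups overlapped too. With batch as a covariate on the uncorrected counts the adjusted p was 0.0283, but when the left-out mice were added it was 0.0685 at a log2 fold change of 0.36, and it was 0.462 and 0.168 in batches 1 and 2 alone.

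The class I transactivator *Nlrc5* had the next smallest p. It ranged from 1.10 to 1.70 TPM in monomer mice and from 0.85 to 3.00 TPM in PFF mice, and 7 of 12 PFF mice lay above every monomer mouse. Its log2 fold change was 0.41 ± 0.14 (SE) with an adjusted p of 0.066 by edgeR, so that it was not called. It was called in 2 of 42 fits without a single mouse. These were without PFF mouse 11 at 21% O2, the lowest of its group, or without PFF mouse 8 at 11% O2. Over the 42 fits its adjusted p by edgeR was 0.018 to 0.173.

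The heavy chains and their partner showed smaller differences. For *H2-K1* monomer mice had 50.3 to 86.7 TPM and PFF mice 51.9 to 118.7 TPM, and for *H2-D1* the medians were 111 TPM and 136 TPM. For both genes the groups overlapped and the PFF mice spread wider, with an SD of 19.1 TPM (n = 12) against 9.40 TPM (n = 11) for *H2-K1* and of 24.2 TPM against 11.7 TPM for *H2-D1*. Log2 fold changes were 0.30 ± 0.11 (SE) for *H2-K1* and 0.26 ± 0.10 (SE) for *H2-D1*, with adjusted p of 0.0943 and 0.0988 by edgeR. Summing the counts of both genes gave 0.28 ± 0.10 (SE) and an adjusted p of 0.0911. Each was called in 1 of 42 fits without a single mouse, that without PFF mouse 5 at 21% O2, the lowest PFF mouse for each. Over these fits the adjusted p by edgeR was 0.035 to 0.206 for *H2-K1* and 0.0399 to 0.204 for *H2-D1*. *B2m* went from a median of 506 TPM to 575 TPM and *Tapbp* from 29.8 TPM to 33.7 TPM, and neither difference, 0.21 ± 0.09 and 0.15 ± 0.06 on the log2 scale (SE), passed, with adjusted p of 0.141 and 0.122 by edgeR.

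The class II genes had the largest fitted differences and the largest errors. *Cd74* had a lowest, median and highest level of 5.83, 11.0 and 19.1 TPM in monomer mice and 2.69, 14.2 and 43.0 TPM in PFF mice at 21% O2. PFF mice thus held both the lowest and the highest mouse. *H2-Ab1* went from a median of 3.98 TPM to 4.996 TPM with a highest PFF mouse of 19.0 TPM, *H2-Aa* from 2.94 to 3.85 TPM and *H2-Eb1* from 8.11 to 9.19 TPM. Log2 fold changes were 0.46 to 0.61 with SEs of 0.24 to 0.34, and adjusted p lay between 0.258 and 0.366 by edgeR. PFF mouse 8 was the highest of all PFF mice for each of the 4 genes, and without it the log2 fold changes fell to 0.25 for *Cd74*, 0.28 for *H2-Ab1*, 0.33 for *H2-Aa* and 0.21 for *H2-Eb1*. Summed leptomeningeal fibroblast markers ranged from 15.0 to 55.0 TPM in monomer and from 13.1 to 82.6 TPM in PFF mice at 21% O2, with 0 of 6 markers called, and their part in the class II values was not tested.

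**Figure D2:**
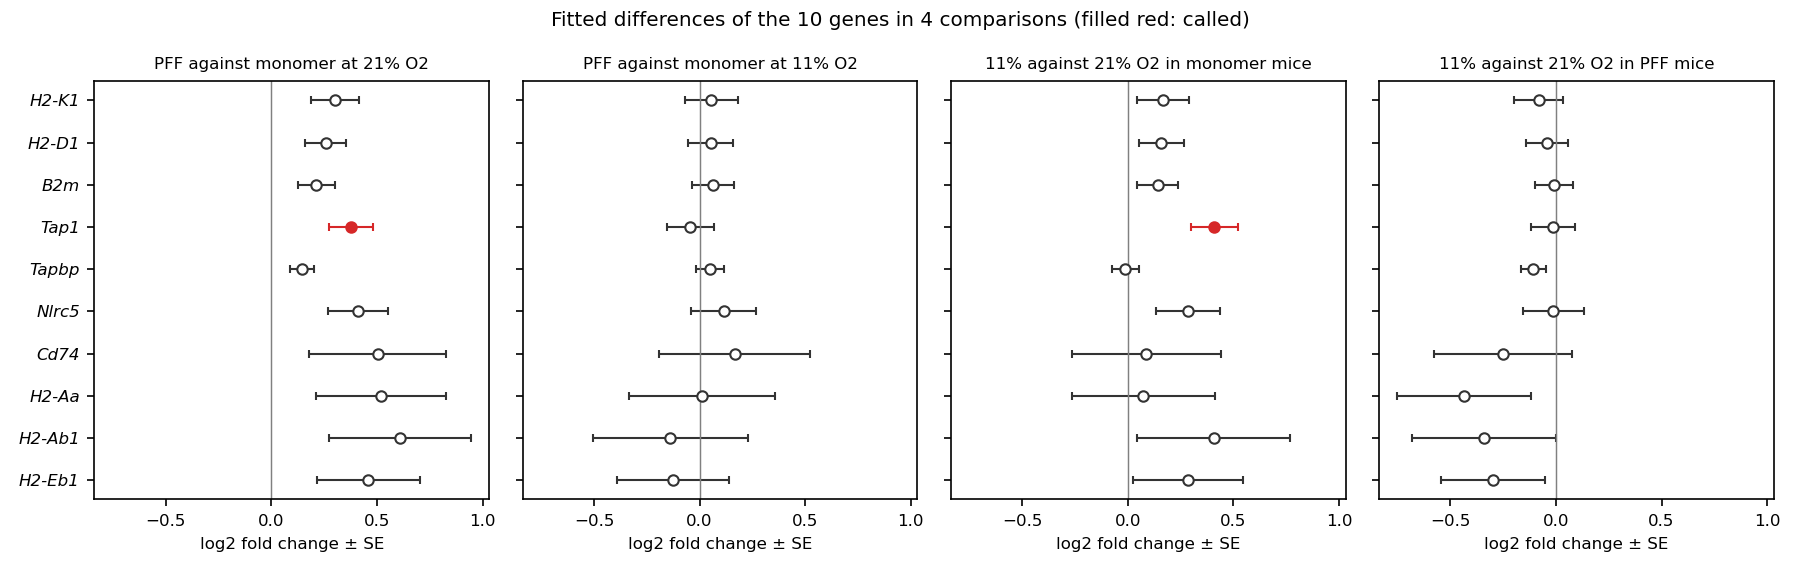
Fitted log2 fold change (horizontal axis, edgeR, bars ± SE) of the 10 genes (rows) in 4 comparisons (panels), with called genes in filled red. *Tap1* is called at 0.38 for PFF at 21% O2 and at 0.41 for 11% O2 in monomer mice, and the 4 class II genes have the widest bars.

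Other genes of the class I pathway, listed by function, numbered 21, all of them tested. For PFF at 21% O2, 3 rose, none fell and 12 had an unadjusted p under 0.05, with a median log2 fold change of 0.12. Of all genes tested, 2.29% were called higher, 1.41% lower and 22.4% had an unadjusted p under 0.05. The immunoproteasome genes *Psmb9* and *Psmb8* replace constitutive subunits of the proteasome. *Psmb9* ranged from 1.59 to 3.53 TPM in monomer and from 2.42 to 4.73 TPM in PFF mice, with 7 of 12 PFF mice above every monomer mouse, and a log2 fold change of 0.51 ± 0.14 (SE) with an adjusted p of 0.021 by edgeR. *Psmb8* had 0.37 ± 0.12 (SE) and an adjusted p of 0.0404. *H2-T23*, which encodes the nonclassical class I molecule Qa-1, ranged from 22.5 to 27.6 TPM in monomer and from 20.9 to 39.2 TPM in PFF mice, and rose by 0.27 ± 0.08 (SE), with an adjusted p of 0.0315 by edgeR. *Tap2*, the transporter's other subunit, had 0.036 ± 0.066 (SE).

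*Calr*, *H2-M3* and *Mr1* of this list passed the adjusted p but not the fold change threshold. Over all genes 7.59% had an adjusted p under 0.05, which includes the 3.70% that were called. *Calr*, the chaperone calreticulin, went from 518 ± 42.1 TPM (SD, n = 11) to 445 ± 44.7 TPM (SD, n = 12), a log2 fold change of -0.20 with an adjusted p of 0.0102 by edgeR. *H2-M3* and *Mr1*, both nonclassical class I genes, had log2 fold changes of 0.23 and 0.21.

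Of 19 other class II pathway genes, 17 were in the table and tested. *H2-DMa*, the α chain of H2-DM, was the single one called higher for PFF at 21% O2, and none was called lower, against 2.29% higher and 1.41% lower over all genes. It ranged from 8.60 to 11.2 TPM in monomer and from 9.88 to 12.7 TPM in PFF mice. All 12 PFF mice lay above the median of the monomer mice and 7 above all of them, and the log2 fold change was 0.27 ± 0.07 (SE) with an adjusted p of 0.0102 by edgeR. The β chain gene *H2-DMb1* had a similar difference, 0.31 ± 0.14 (SE), and was not called, with an adjusted p of 0.164. *Ciita*, the class II transactivator, had -0.18 ± 0.10 (SE).

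These calls differed in how they withstood other settings. Over 12 alternatives for PFF at 21% O2, *Tap1* and *Psmb9* were each lost in 3, *H2-DMa* in 5, and *Psmb8* and *H2-T23* in 7. For *H2-DMa*, 3 of the 5 were limma fits whose adjusted p passed while the fold change fell just under 0.25. Leaving out single mice never ended the calls of *Tap1*, *Psmb9* and *H2-DMa*, whereas *Psmb8* was called in 29 of 42 such fits and *H2-T23* in 36, with highest adjusted p of 0.0891 and 0.0813. No fold change changed sign in any of these. In batch 1 and batch 2 the log2 CPM difference was 0.81 and 0.25 for *Psmb9*, 0.58 and 0.10 for *Psmb8*, 0.25 and 0.23 for *H2-T23*, and 0.24 and 0.22 for *H2-DMa*. With batch as a covariate on uncorrected counts of the 42 mice, the adjusted p by edgeR was 0.0214 for *Psmb9*, 0.0472 for *H2-T23* and 0.0153 for *H2-DMa*, and 0.0552 for *Psmb8*, which was then not called.

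Of 21 genes of interferon γ signalling and other interferon-induced genes, none was called for PFF at 21% O2, by edgeR, where 18 had a positive log2 fold change, 4 an unadjusted p under 0.05 and the median was 0.13. Over all genes, 22.4% had an unadjusted p under 0.05. Of 10 microglial markers none was called, 8 were positive, and their summed level was 663.2 to 1207 TPM in monomer and 717.0 to 1215 TPM in PFF mice. Of 9 endothelial markers 1 was called higher in this comparison, against 2.29% of all genes. The part of these cell types was not tested.

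**Figure D3:**
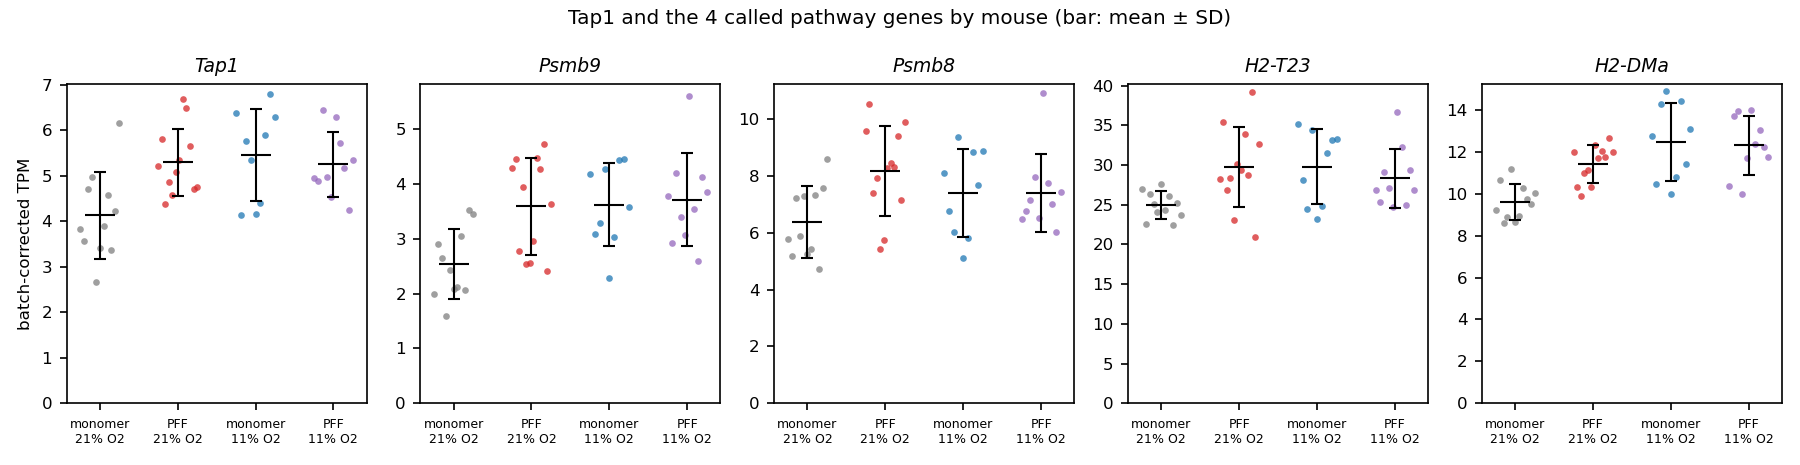
Batch-corrected TPM (linear axes from 0) of *Tap1* and of *Psmb9*, *Psmb8*, *H2-T23* and *H2-DMa* in each of the 42 mice, by group, with the mean and SD as bars. For all 5 genes the monomer mice at 21% O2 have the lowest mean of the 4 groups.

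The next comparison asked what breathing 11% O2 did in monomer mice, and it shares the 11 monomer mice at 21% O2 with the first. *Tap1* was again the only one of the 10 genes called, 1 of 10 against 7.23% of all genes tested, 4.68% higher and 2.55% lower. It was also the only one with an unadjusted p under 0.05, as 27.7% of all genes had. Monomer mice at 11% O2 ranged from 4.13 to 6.80 TPM with a median of 5.77 and a mean of 5.46 ± 1.01 TPM (SD, n = 9). All 9 lay above the median of the monomer mice at 21% O2, and 3 above the highest. The log2 fold change was 0.41 ± 0.11 (SE) with an adjusted p of 0.0102 by edgeR. In batch 1, the only batch with both groups, the log2 CPM difference was 0.35, the adjusted p in that batch alone was 0.235, and with batch as a covariate on uncorrected counts it was 0.0497. Batch 2 held no monomer mice at 11% O2 and batch 3 none at 21% O2.

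The other 9 genes had adjusted p of 0.223 or more. *Nlrc5* had a log2 fold change of 0.28 ± 0.15 (SE), *H2-K1* 0.17 ± 0.12 (SE), *H2-D1* 0.16 ± 0.11 (SE) and *B2m* 0.14 ± 0.10 (SE), while *Tapbp* had -0.011 ± 0.063 (SE). Class II genes lay between 0.073 for *H2-Aa* and 0.41 for *H2-Ab1*, with SEs of 0.26 to 0.36. The median over the 10 genes was 0.16, against -0.0060 over all genes. Monomer mouse 11 at 11% O2, the only mouse harvested 98 days after injection, was the highest of its group for each class II gene. Without it the log2 fold changes were -0.084 for *Cd74*, -0.12 for *H2-Aa*, 0.21 for *H2-Ab1* and 0.14 for *H2-Eb1*.

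Among the other class I pathway genes 2 of 21 were called higher and none lower, against 4.68% higher and 2.55% lower over all genes. *Psmb9* had a log2 fold change of 0.51 ± 0.15 (SE) with an adjusted p of 0.0195 by edgeR, and 8 of 9 mice at 11% O2 were above the median at 21% O2. The call was lost in 2 of 11 alternatives, in batch 1 alone with an adjusted p of 0.119 and with batch as a covariate on uncorrected counts with 0.0557. *H2-T23* had 0.26 ± 0.09 (SE) with an adjusted p of 0.0386. That call was lost in 6 of 11 alternatives, where its highest adjusted p was 0.195 and that with batch as a covariate 0.114, and in 10 of 42 fits without a single mouse. *Psmb8* was not called, at 0.22 ± 0.12 (SE). Of the 17 class II pathway genes, *H2-DMa* rose, by 0.38 ± 0.07 (SE) with an adjusted p of 0.000302 by edgeR, and kept its call in all 11 alternatives, with an adjusted p of 0.00642 with batch as a covariate. Its mean was 9.61 ± 0.85 TPM (SD, n = 11) at 21% and 12.5 ± 1.85 TPM (SD, n = 9) at 11% O2. None of the 21 interferon genes was called, with 6 at an unadjusted p under 0.05, as 27.7% of all genes were.

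Endothelial markers moved in the same comparison: 7 of 9 were called higher, against 4.68% of all genes. Their summed level was 308 to 427 TPM in monomer mice at 21% and 405 to 694 TPM at 11% O2, with none at 0 in any mouse. Across the 42 mice, with group means removed, *Tap1* and the summed endothelial markers had a Pearson's r of 0.14 (adjusted permutation p = 0.504) and a Spearman's rho of 0.16 (adjusted permutation p = 0.413). Within batches 1, 2 and 3 the r was -0.021, 0.61 and -0.0090. Of 10 microglial markers none was called, all were positive and 5 had an unadjusted p under 0.05, as 27.7% of all genes had. The part of endothelium and microglia in the difference between groups was not tested.

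Between PFF and monomer mice at 11% O2, none of the 10 genes was called by edgeR or DESeq2, none had an unadjusted p under 0.05, and 0 of all 14839 genes, or 0%, were called by edgeR, with 3.92% at an unadjusted p under 0.05. Log2 fold changes lay between -0.14 for *H2-Ab1* and 0.17 for *Cd74*, with a median of 0.051. *Tap1* had a mean of 5.25 ± 0.71 TPM (SD, n = 10) in PFF and 5.46 ± 1.01 TPM (SD, n = 9) in monomer mice at 11% O2, a log2 fold change of -0.044 ± 0.112 (SE). *H2-K1* had 80.9 ± 16.0 TPM (SD, n = 10) and 78.7 ± 17.9 TPM (SD, n = 9). For class II genes the SE was 0.27 to 0.37.

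Breathing 11% against 21% O2 in PFF mice gave negative log2 fold changes for all 10 genes, from -0.44 for *H2-Aa* to -0.0094 for *B2m*, with a median of -0.094. None was called by edgeR or DESeq2 and none had an unadjusted p under 0.05, while 0.580% of all genes were called and 10.7% had an unadjusted p under 0.05. *Tapbp* had the smallest p among them, at -0.11 ± 0.06 (SE) and an adjusted p of 0.531. In single batches the direction was not stable: 1, 4 and 3 of the 10 genes had a positive difference in batches 1, 2 and 3.

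The difference between the responses to PFFs at 11% and at 21% O2 was tested as an interaction. It was negative for all 10 genes, with a median of -0.32, and since both 21% O2 groups enter it, it is not independent of the first comparison. None of the 10 was called by edgeR or DESeq2, against 2.14% of all genes by edgeR, and 15.4% of all genes had an unadjusted p under 0.05. *Tap1* had -0.42 ± 0.15 (SE) with an unadjusted p of 0.00814 and an adjusted p of 0.137 by edgeR, and was the 1 gene of the 10 with an unadjusted p under 0.05. It was called in 1 of 42 fits without a single mouse, that without monomer mouse 12 at 21% O2, the highest of its group. Over the 42 fits its adjusted p by edgeR was 0.0473 to 0.214. Class II genes had -0.34 to -0.75 with SEs of 0.36 to 0.50. Among the pathway genes called for PFF at 21% O2, the interaction was -0.47 for *Psmb9*, -0.36 for *Psmb8*, -0.33 for *H2-T23* and -0.27 for *H2-DMa*, with adjusted p of 0.257, 0.307, 0.142 and 0.144 by edgeR, so that a different response at 11% O2 was not shown for any of them.

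In order of group means, *Tap1* was lowest in monomer mice at 21% O2 with 4.13 TPM, and the other 3 groups, at 5.25, 5.30 and 5.46 TPM, differed from each other by less than their SDs. The same lowest group was found for every gene of the 10 but *Tapbp*, which was lowest in monomer mice at 11% O2 with 31.0 TPM against 31.3 TPM, a gap below the SD. For none of the other 9 genes was any of the 4 comparisons between groups called.

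Beyond the groups, the genes varied together from mouse to mouse. Correlations were taken over the 42 mice after removing each group's mean log2 CPM, for the 45 pairs of the 10 genes. Over the 6 pairs of class II genes Pearson's r was 0.82 to 0.92 with a median of 0.88, over the 15 pairs of class I genes 0.084 to 0.94 with a median of 0.55, and over the 24 mixed pairs 0.17 to 0.71 with a median of 0.44. *Cd74* and *H2-Ab1* had an r of 0.92 (permutation p = 1e-05, the smallest that the permutations can give) and a rho of 0.92 (permutation p = 1e-05), with 0.91 when the 2 mice farthest from the median were left out. Within batches 1, 2 and 3 the r was 0.96, 0.95 and 0.89. All mice share the dissection and the batch-corrected scale, which the points therefore have in common.

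The class I genes did not form 1 block. *H2-K1* and *H2-D1* had an r of 0.94 and a rho of 0.94 (permutation p = 1e-05 for both), 0.92 without the 2 farthest mice, and 0.94 to 0.95 within batches, although reads shared between them would raise it. *H2-K1* and *B2m* had an r of 0.79 and a rho of 0.74 (permutation p = 1e-05 for both), with 0.72 without the 2 farthest mice. *Tap1* was closest to *Tapbp*, with an r of 0.66 (permutation p = 2e-05) and a rho of 0.63 (permutation p = 3e-05), 0.57 without the 2 farthest mice, and 0.54, 0.83 and 0.61 within batches. With *H2-D1*, *H2-K1* and *Nlrc5*, *Tap1* had an r of 0.55, 0.52 and 0.50 (permutation p = 6e-05, 0.00042 and 0.0002). With *B2m*, *Tap1* had an r of 0.12 (permutation p = 0.471) and a rho of 0.11 (permutation p = 0.523). Adjusted over the 45 pairs, the p of r was 3.75e-05 for the pairs at 1e-05, 6.92e-05 for *Tap1* with *Tapbp* and 0.482 for *Tap1* with *B2m*. Between the classes, *H2-K1* and *Cd74* had an r of 0.64 (permutation p = 5e-05, adjusted p = 0.000141) and a rho of 0.61 (permutation p = 6e-05), with 0.56 without the 2 farthest mice.

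**Figure D4:**
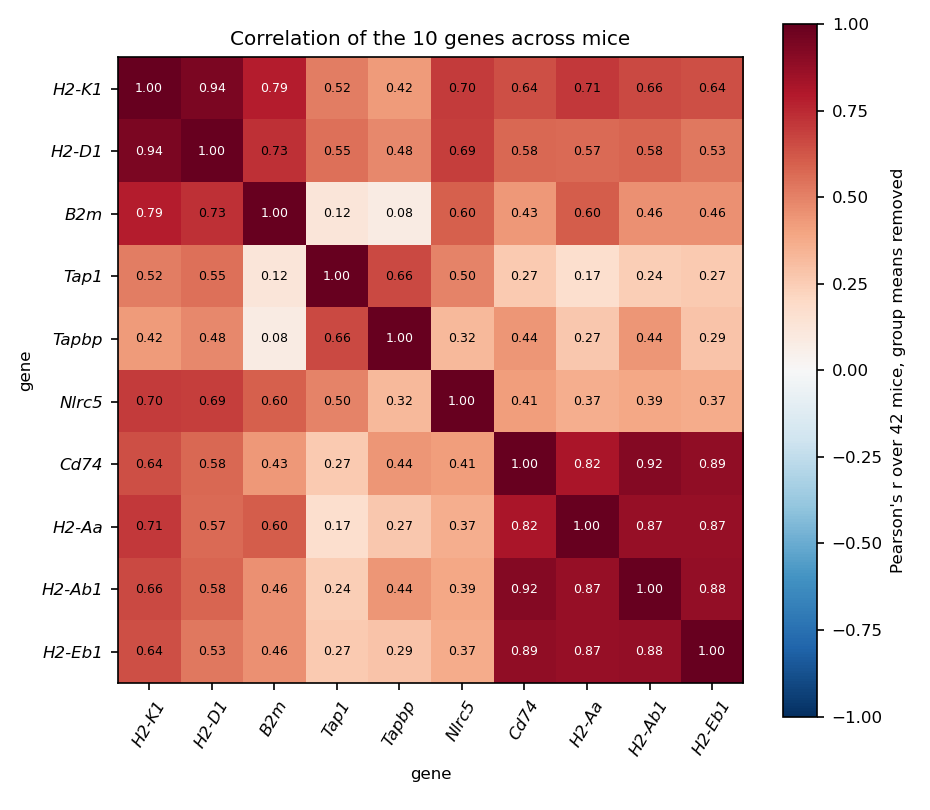
Pearson's r between the 10 genes over 42 mice after removal of group means (colour scale and printed values), with genes on both axes. The 4 class II genes form a block of 0.82 to 0.92. *H2-K1*, *H2-D1*, *B2m* and *Nlrc5* have 0.60 to 0.94 with each other, and *H2-K1* has 0.64 to 0.71 with the class II genes. *Tap1* and *Tapbp* have 0.66 with each other, and 0.12 and 0.084 with *B2m*. With *H2-K1*, *H2-D1* and *Nlrc5*, *Tap1* has 0.50 to 0.55 and *Tapbp* 0.32 to 0.48.

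Outside the 10 genes, those most like *H2-K1* across the 42 mice were *H2-Q4*, a further class I gene, with an r of 0.91, *Unc93b1*, which carries Toll-like receptors to endosomes, with 0.85, the interferon-induced *Ifi27* with 0.85, the microglial receptor gene *Trem2* with 0.83 and the lysosomal protease gene *Ctsh* with 0.83. For *Cd74* they were *Fbln1* with 0.89, *Col1a2* with 0.84, *Bmp6* with 0.84, *Aebp1* with 0.83 and *Col23a1* with 0.82. *Fbln1*, *Col1a2* and *Col23a1* encode extracellular matrix proteins, and *Col1a2* is among the leptomeningeal fibroblast markers listed here. Within single batches these correlations lay between 0.57 and 0.95.

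Set against summed markers of 9 cell types, 27 relations in all, *Cd74* was highest with leptomeningeal fibroblasts, with an r of 0.76 (permutation p = 1e-05, adjusted p = 6.75e-05) and a rho of 0.68 (permutation p = 1e-05), 0.72 without the 2 farthest mice, and 0.89, 0.92 and 0.67 within batches. With border macrophages, monocytes and dendritic cells, the types that express class II most, its r was 0.61 and its rho 0.635 (permutation p = 2e-05, adjusted p = 0.000108 for both), with 0.57 without the 2 farthest mice. With astrocytes its r was higher, at 0.67, with a rho of 0.68 (permutation p = 1e-05, adjusted p = 6.75e-05 for both) and 0.60 without the 2 farthest mice, and *H2-K1* too had an r of 0.67 with astrocytes and a rho of 0.69 (permutation p = 1e-05, adjusted p = 6.75e-05 for both), with 0.63 without the 2 farthest mice. *H2-K1* was highest with microglia, with an r of 0.76 (permutation p = 1e-05, adjusted p = 6.75e-05) and a rho of 0.74 (permutation p = 1e-05), and 0.75 without the 2 farthest mice. Against dopaminergic neurons r was negative, at -0.52 for *H2-K1* with a rho of -0.58, and at -0.51 for *Cd74* with a rho of -0.60 (adjusted permutation p of r = 0.00248 for both), and at -0.50 and -0.49 without the 2 farthest mice. *Tap1* had no r beyond 0.30 with any of the 9 lists, and none of its adjusted p for r was under 0.101, although its rho with astrocytes was 0.36 (adjusted permutation p = 0.0454). Levels that move together in bulk tissue do not show which cells held the transcripts.

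The 6 mice that the authors left out of their corrected tables are described in TPM before correction. In the 42 mice *Cd74* lay between 3.30 and 39.8 TPM. In the left-out PFF mice 2 and 5 at 11% O2 it was 151 and 128 TPM, and in left-out monomer mouse 10 at 21% O2 it was 51.1 TPM. The left-out monomer mice 8, 9 and 12 at 11% O2 had 34.0, 17.5 and 39.7 TPM. Thus 3 of the 6 exceeded every one of the 42 mice, and both left-out PFF mice exceeded them more than 3-fold.

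The other class II genes went the same way in both PFF mice. *H2-Aa* was 29.3 and 34.8 TPM against 0.80 to 9.33 in the 42, *H2-Ab1* 36.9 and 41.5 TPM against 1.19 to 17.6, and *H2-Eb1* 74.6 and 67.4 TPM against 3.99 to 28.2. Of the class I genes, *Tapbp* alone lay above all 42 in both mice, at 51.7 and 59.3 TPM against 23.2 to 36.4. *H2-K1* was 62.5 TPM in PFF mouse 2, inside the range of 49.4 to 113.5 TPM in the 42, and 138 TPM in PFF mouse 5. *Tap1* was 4.06 and 8.58 TPM against 2.696 to 6.95, and *H2-D1* 101.5 and 230.7 TPM against 86.69 to 187.8. *B2m* was 465.2 and 715.5 TPM against 361.9 to 728.9, and *Nlrc5* 0.80 and 2.14 TPM against 0.82 to 2.97.

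Several marker lists were high in the same mice. Summed leptomeningeal markers, 12.7 to 85.0 TPM in the 42, were 128 and 400 TPM in PFF mice 2 and 5 at 11% O2, and 5 of the 6 left-out mice lay above all 42. Summed lymphocyte markers, 1.76 to 5.22 TPM in the 42, were 19.8 and 17.2 TPM in the same mice, also with 5 of 6 above all 42, and PFF mouse 5 had 111 TPM of border macrophage, monocyte and dendritic cell markers against at most 52.6. PFF mouse 2 was also the shallowest library, with 3134594 counts in all and 262 on *Cd74*. Summed dopaminergic markers were 880 to 4646 TPM in the 42. They were 384 and 309 TPM in left-out monomer mice 8 and 9 at 11% O2, and 869 TPM in left-out monomer mouse 10 at 21% O2. The other left-out mice had 1693 to 1806 TPM. The part of these markers and of depth in the class II levels was not tested.

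The direction of the O2 comparison in PFF mice changed when these mice were added. In a fit of uncorrected counts with batch as a covariate over 48 mice, *Cd74* had a log2 fold change of 1.09 ± 0.48 (SE) and *H2-Ab1* of 0.84 ± 0.45 (SE) for 11% against 21% O2 in PFF mice, where the same kind of fit over 42 mice gave -0.31 ± 0.25 and -0.25 ± 0.27 (SE). Adjusted p in the fit of 48 mice were 0.285 and 0.409 by edgeR, so that class II was not called with either set of mice.

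**Figure D5:**
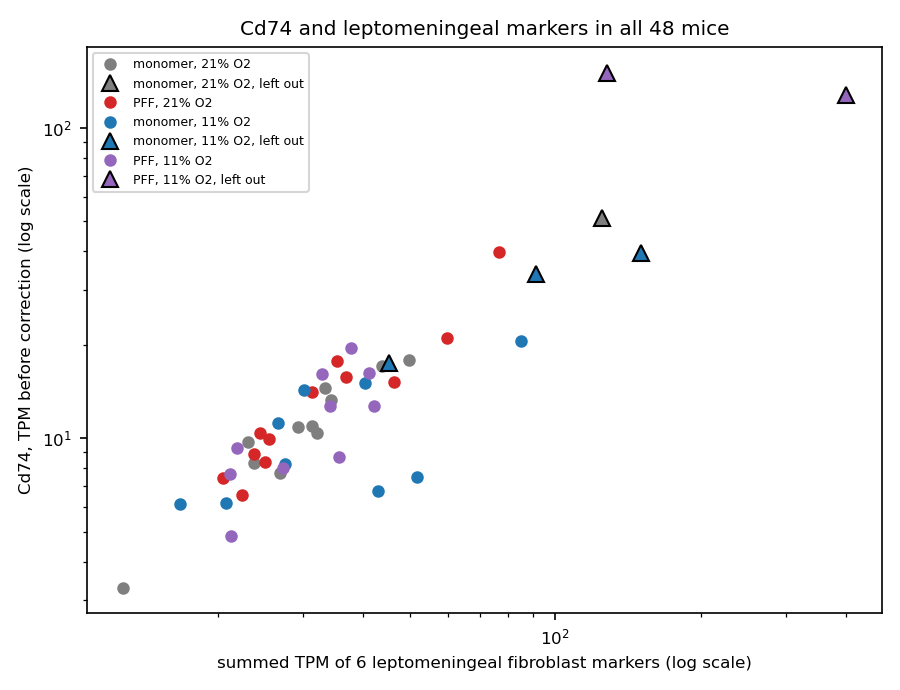
*Cd74* in TPM before correction (vertical, log scale) against the summed TPM of 6 leptomeningeal fibroblast markers (horizontal, log scale) in all 48 mice, coloured by group, with the 6 left-out mice as triangles. The left-out PFF mice at 11% O2 have 151 and 128 TPM of *Cd74*, above the 3.30 to 39.8 TPM of the 42 mice that were analysed.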

How the data were processed

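Bulk RNA-seq of the SN was analysed from the tables of the series. The authors aligned reads to mm10 with STAR 2.7.5a, removed duplicates with Picard 2.21.9 and counted reads per gene with featureCounts 2.0.1 at the primary alignment. They deposited raw counts and TPM for 55385 genes in 48 mice. Having set aside 6 mice as outliers of a principal components plot, the authors ran ComBat-seq with O2 and injection as covariates and deposited batch-corrected counts and TPM for 19601 genes in 42 mice. Because that correction was told the groups, tests on its output can give p-values that are too small, and the fit of uncorrected counts with batch as a covariate is given for the called genes. Positions are GENCODE vM21 on GRCm38.

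Tests used these corrected counts in edgeR 4.0.16 under R 4.3.3 (TMM, filterByExpr, quasi-likelihood test, 4 groups in a single fit, no batch term). A call needed an adjusted p (Benjamini–Hochberg, 14839 genes) under 0.05 and a log2 fold change beyond 0.25. SEs are the absolute log2 fold change over the square root of F. TPM served for levels. The members and gene lists were chosen with earlier results of these data known. Named beside the 10 members were called genes of the pathway lists, at most 5 per list and comparison by smallest p, and for *H2-K1* and *Cd74* the 5 genes with the highest r; *Calr*, *H2-M3*, *Mr1*, *Tap2*, *H2-DMb1*, *Ciita* and the uncalled values of *Psmb8*, with *H2-Ea-ps* and the interferon-induced genes, were named after their values were seen. Permutations of mice within groups numbered 100000. The fit was checked on simulated data. Results were recomputed with DESeq2 1.42.0, with its size factors in edgeR, no filter, batch as a covariate in 42 or 48 mice, each batch alone, a replicate block, only the groups compared, limma 3.58.1 on log2(TPM + pseudocount), the pseudocount being 1 or 0.1, also for mean TPM of at least 1, the adjusted p alone, summed *H2-K1* and *H2-D1*, and each mouse left out.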

Additional observations from a re-analysis of the deposited data

Results flagged for a closer look

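PFF mouse 8 at 11% O2 stood far above the other 9 mice of its group in 4 class I genes, with 121 TPM of *H2-K1* against at most 91.7 in the others, 202.9 TPM of *H2-D1* against 145.5, 825 TPM of *B2m* against 599 and 2.87 TPM of *Nlrc5* against 2.15. Of 20 sets of values tested for a far sample, 4 held one, all from this mouse, and chance marks about 1 set in 20. All 20 came from the groups at 11% O2, because the test covered groups of at most 10 mice. The groups at 21% O2, with 11 and 12 mice, were not tested. These genes correlate across mice, so that the 4 are not independent.

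Mice that were left out of the comparisons held levels, in TPM before correction, above every monomer mouse at 21% O2 that was analysed. For *H2-K1*, where the highest of those had 79.0 TPM, PFF mouse 5 at 11% O2 had 138 TPM, monomer mouse 10 at 21% O2 had 99.7 TPM, and monomer mice 8, 9 and 12 at 11% O2 had 117, 90.1 and 120 TPM. For *Tap1*, with a highest value of 6.07 TPM, PFF mouse 5 had 8.58 TPM and monomer mice 8 and 12 at 11% O2 had 7.56 and 7.84 TPM. For *Cd74*, with a highest value of 17.8 TPM, PFF mice 2 and 5 at 11% O2 had 151 and 128 TPM, monomer mouse 10 at 21% O2 had 51.1 TPM, and monomer mice 8 and 12 at 11% O2 had 34.0 and 39.7 TPM. Over all 42 analysed mice the highest levels were 113.5 TPM of *H2-K1*, 6.95 TPM of *Tap1* and 39.8 TPM of *Cd74*, so not every level listed exceeds these. The left-out monomer mice at 11% O2 were in batch 3, which held no monomer mice at 21% O2.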

How the results depend on the processing

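Of 682 values recomputed under another setting, 601 kept their direction and their side of the threshold, 34 lost a call, 1 gained one and 46 changed sign. Every one of the 46 belongs to a fold change that was not called. Most of the 682 belong to fold changes that were not called in the main fit and so had no call to lose. Each call of the main fit was lost in 0 to 7 of its 11 or 12 alternatives. The count of called members for PFF at 21% O2, 1 gene, became 0 with 48 mice, in batch 1 alone and in batch 2 alone, and that for 11% O2 in monomer mice, 1 gene, became 0 in batch 1 alone, where fewer mice were tested. For the interaction the count of 0 became 1 with a replicate block, which called *Tap1* at -0.54 (adjusted p = 0.0318). Leaving out single mice gave 1 to 3 called members for PFF at 21% O2, 1 in every fit for 11% O2 in monomer mice, 0 to 1 for the interaction and 0 in the others. Counts over all genes moved too, in batch 1 alone from 549 to 9 for PFF at 21% O2, 1073 to 297 for 11% O2 in monomer mice, 86 to 6 for 11% O2 in PFF mice and 318 to 11 for the interaction. With batch as a covariate on uncorrected counts of 42 mice the count was 657 for 11% O2 in monomer mice, with 48 mice it was 152 for the interaction, and by adjusted p alone 1127 for PFF at 21% O2 and 1961 for 11% O2 in monomer mice. For 11% O2 in PFF mice they were 7 and 2 in batches 2 and 3. The paper describes a matched-pairs design, and whether replicate numbers mark those pairs is not stated in the sources used here. Deviations of 54 pairs with the same number correlated at -0.40 to 0.56, median 0.0034, against a median of -0.014 for 605 other pairs. Such correlations cannot show whether mice were matched. The block moved no other count of members. With 48 mice, the sign changed to positive for 11% O2 in PFF mice in *H2-K1* (0.0076), *H2-D1* (0.043), *B2m* (0.023), *Tap1* (0.075), *Tapbp* (0.11), *Cd74* (1.09), *H2-Aa* (0.80), *H2-Ab1* (0.84) and *H2-Eb1* (0.81), for the interaction in *Cd74* (0.33), *H2-Aa* (0.37) and *H2-Eb1* (0.16), for PFF at 11% O2 in *H2-Ab1* (0.34) and *H2-Eb1* (0.45), and for 11% O2 in monomer mice in *Tapbp* (0.11), and it turned negative for PFF at 11% O2 in *H2-K1* (-0.011). In batch 1 alone, PFF at 11% O2 gave -0.16 for *H2-K1*, -0.16 for *H2-D1*, -0.0036 for *B2m*, 0.0049 for *Tap1*, -0.49 for *Cd74* and -0.24 for *H2-Aa*, and 11% O2 in PFF mice gave 0.091 for *Tap1*. In batch 2 alone, 11% O2 in PFF mice gave 0.15 for *H2-K1*, 0.21 for *H2-D1*, 0.31 for *B2m* and 0.24 for *Nlrc5*. In batch 3 alone, it gave 0.051 for *Cd74* and 0.0014 for *H2-Ab1*, and PFF at 11% O2 gave -0.024 for *B2m*, 0.13 for *H2-Ab1* and 0.12 for *H2-Eb1*. With the block, PFF at 11% O2 gave -0.019 for *H2-K1*, -0.037 for *H2-D1*, -0.083 for *Cd74* and -0.098 for *H2-Aa*, and 11% O2 in monomer mice 0.020 for *Tapbp*. With batch as a covariate in 42 mice, PFF at 11% O2 gave -0.063 for *Cd74* and -0.049 for *H2-Aa*, and 11% O2 in monomer mice 0.013 for *Tapbp*. limma on log2 TPM gave -0.0086 for *H2-Aa* (PFF at 11% O2) and 0.00099 for *Nlrc5* (11% O2 in PFF mice) with a pseudocount of 1, with or without the minimum on mean TPM, and -0.013 and 0.011 with 0.1. Except that single batches hold fewer mice, the cause of these changes was not tested. Depth limits *Nlrc5* and the class II genes most, at a median of 40.0 to 70.5 counts per mouse.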

Other observations

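The pseudogene copy of the class II α chain of the E molecule, *H2-Ea-ps* (chr17:34341959-34344645, minus strand, GRCm38), had a count of 0 in 43 of the 48 mice and of 1 in the other 5, in the counts before correction. C57BL/6 mice carry a haplotype that does not express this chain, whereas *H2-Eb1*, which encodes its β chain partner, was counted in every mouse.

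Among the interferon-induced genes, *Ifit3*, *Gbp7* and *Gbp3* had log2 fold changes of 0.43 ± 0.18, 0.23 ± 0.09 and 0.37 ± 0.18 (SE) for PFF at 21% O2, and *Iigp1*, *Irf7* and *Rtp4* of 0.67 ± 0.28, 0.54 ± 0.22 and 0.43 ± 0.17 (SE) for 11% O2 in monomer mice. They were chosen after their values were seen, and none of these differences was called, with adjusted p of 0.0766 to 0.199 by edgeR.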
